A study of Mus musculus with 15 samples.

Results

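The response of mouse embryonic stem cells to SB, an inhibitor of the Activin and Nodal receptors, was read from 3 libraries of cells with control siRNA and SB against 3 libraries of cells with control siRNA and no addition. The libraries were chosen by their titles alone, and the comparison covers 14600 of 24451 genes, those with enough counts to be tested. The series has 15 libraries in 5 groups of 3, and 6 libraries enter the comparison. The cells are of the ES-R1 line, whose source is given as the inner cell mass, at a passage under 20. The medium was serum-free DMEM supplemented with N2 and B27, and the stage is given as 4 days of differentiation. All 6 libraries carry a control siRNA, and no Activin is named for them. The inhibitor is spelled SB431524 in the titles but SB431542 in the text on the series, with dose and vehicle not given in the sources used here. The other 3 groups are control siRNA with Activin A at 25 ng/ml, Vprbp siRNA without addition, and Vprbp siRNA with Activin A. All values come from 1 cell line, and no label says that replicates were separate cultures. The p-values therefore measure the spread among these samples alone, and that spread may be technical.

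Activin and Nodal are secreted ligands of the TGF-beta family. They bind paired type II and type I serine/threonine kinase receptors, which phosphorylate Smad2 and Smad3, and these enter the nucleus with Smad4 and raise a set of genes that includes inhibitors of the same pathway. SB inhibitors of this kind block the kinases of the type I receptors ALK4, ALK5 and ALK7 and leave those of the BMP receptors largely active. In pluripotent cells Nodal signalling supports the epiblast state and the start of mesoderm and endoderm formation, and cells without it tend toward neural fates.

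The 6 libraries held 13.5 M to 14.7 M gene counts, expressed below as CPM (counts scaled to a common library total). A gene with no count could still stand at up to 0.204 to 0.225 CPM, counting error only. On principal component 1 of all 15 libraries, which held 48.7% of the variance, the SB libraries lay between 51.1 and 55.8 and the untreated libraries at -1.77, 0.863 and 15.6 for replicates 1, 2 and 3. Untreated replicate 3 thus lay nearest to SB. It was 1 of 3 libraries that lay apart from the others of their group, with Vprbp siRNA replicate 3 and Vprbp siRNA with Activin replicate 1, and a further fit left out all 3. Among the genes lower with SB it was the lowest untreated library at 47.4%, and among genes not called at 39.3%. For the genes higher with SB it was the highest untreated library at 46.4%, and for genes not called at 39.3%. Vprbp, the target of the siRNA used in other groups, stood at 173, 167 and 173 CPM without and 144, 151 and 157 CPM with SB, a difference with p = 0.1 in an exact permutation test (two-sided), the smallest that 3 against 3 allows. Its call in the fit across all genes (-0.18 ± 0.06 on the log2 scale) was lost without any 1 of the 6 libraries.

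SB changed the level of many genes, most of them by less than 2-fold. With edgeR's quasi-likelihood test and Benjamini-Hochberg adjustment, the source of every adjusted p here, 3294 of 14600 genes were called (22.6%), 1642 higher (11.2%) and 1652 lower (11.3%). At an unadjusted p under 0.05 there were 4918, and DESeq2 called 3337. A change of over 2-fold was seen for 323 of the higher and 405 of the lower genes, one of over 8-fold for 15 and 17, and 1797 of the called genes changed by less than 1.5-fold. The median log2 fold change was -0.0048 over all genes, with the 5th and 95th percentiles at -0.85 and 0.72. Leaving out 1 library gave between 2399 calls (without SB replicate 1) and 3424 (without untreated replicate 3). In RNA from whole cultures, fewer cells of a type and less RNA per cell cannot be told apart.

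**Figure D1:**
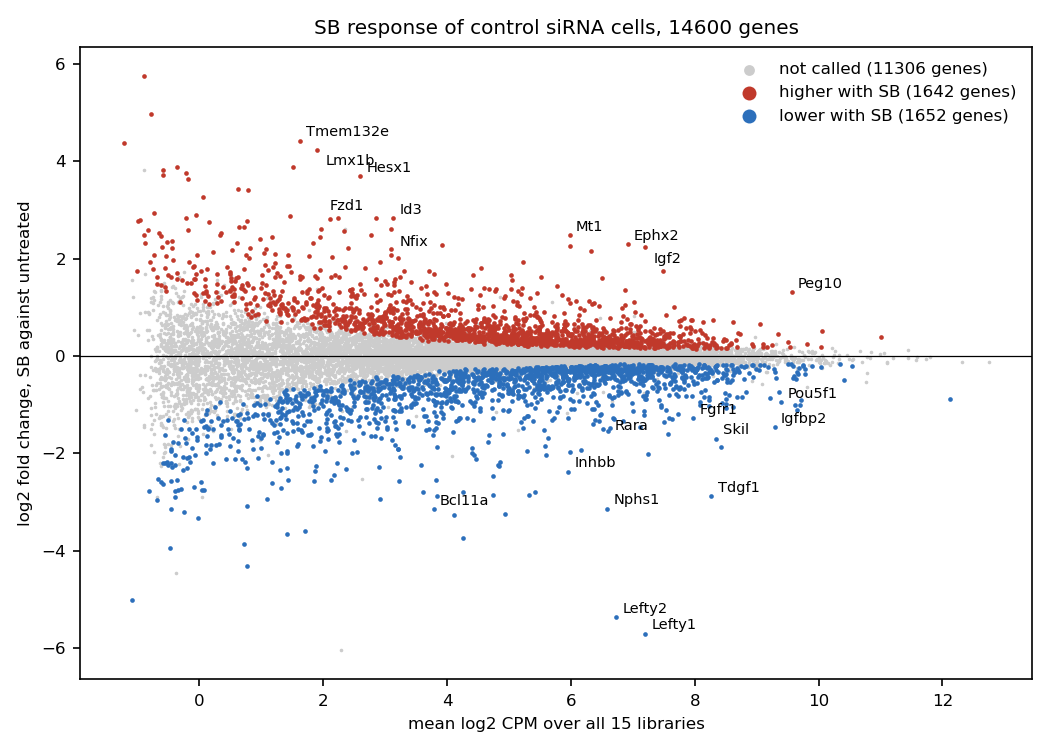
Log2 fold change of SB against untreated cells (vertical axis) by the mean log2 CPM over all 15 libraries (horizontal axis) for 14600 genes. Red points are the 1642 genes called higher, blue the 1652 called lower and grey those not called. Lefty1 and Lefty2, at -5.70 and -5.36, lie far below the other abundant genes, and Mt1, Ephx2 and Igf2 are labelled among the rises.

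Several ligands, coreceptors and antagonists of the pathway itself fell. Lefty1 (chromosome 1, 180935022 to 180938401, GRCm38) and Lefty2 (chromosome 1, 180893108 to 180899107), secreted antagonists that Nodal signalling induces, lost nearly all their RNA. Lefty1 stood at 102, 105 and 38.1 CPM in untreated replicates 1, 2 and 3 and at 1.38, 1.81 and 1.5 CPM in SB replicates 1, 2 and 3 (log2 fold change -5.7 ± 0.63, SE; adjusted p = 9.2e-05). Lefty2 stood at 56.4, 55.4 and 16.6 against 1.31, 0.724 and 1.07 CPM (-5.36 ± 0.73, adjusted p = 0.00039). Untreated replicate 3 was the lowest untreated library for both and still far above every SB library. The paralogs are neighbours with similar sequences and may share reads.

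Nodal, the ligand, and Tdgf1, the coreceptor also named Cripto, fell as well. Nodal (chromosome 10, 61417972 to 61425338) was at 84.8, 83.9 and 63.6 CPM without and 34, 39.5 and 43.2 CPM with SB (-0.99 ± 0.10, adjusted p = 1.2e-06). Tdgf1 (chromosome 9, 110939608 to 110946158) was at 266, 226 and 130.3 against 23.5, 33.5 and 27.7 CPM (-2.88 ± 0.31, adjusted p = 7.4e-05). Inhbb, which encodes the Activin B subunit, was at 83.5, 83.3 and 93.3 against 15.3, 16.1 and 18.9 CPM (-2.37 ± 0.13, adjusted p = 9.8e-10). The groups of all 3 genes stood apart, and for Inhbb untreated replicate 3 was the highest library, not the lowest. Of 18 tested ligands, coreceptors and antagonists (21 in the list), 6 fell and 1 rose, with a median log2 fold change of -0.17. Without untreated replicate 3 or SB replicate 1 the rises numbered 2. The sixth fall was that of the Activin-binding protein gene Fstl3 (-0.86 ± 0.25), a call lost without untreated replicate 2 or SB replicate 3. The rise was that of Gdf11, a ligand of the same receptors, at 3.53, 2.61 and 3.22 against 7.63, 5.21 and 6.66 CPM (1.06 ± 0.23). Gdf3, another ligand of the family, stood at 85.8, 86.2 and 76 against 85.7, 99.7 and 98.3 CPM and did not pass (adjusted p = 0.062).

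Most intracellular inhibitors of the pathway fell. Smad7, which blocks the type I receptor, was at 61.3, 46.6 and 37.4 CPM without and 10.6, 14.2 and 12.3 CPM with SB (-1.97 ± 0.20, adjusted p = 1.0e-05). Pmepa1, which binds Smad2 and Smad3 away from the receptor, was at 39.3, 44 and 39.3 against 11.4, 13.1 and 13.7 CPM (-1.68 ± 0.10, adjusted p = 4.1e-10). Skil, a repressor of Smad target genes, was at 355, 299 and 198 against 87.7, 87 and 88.7 CPM (-1.69 ± 0.18, adjusted p = 4.4e-05). The SB libraries lay close together for Skil, while the untreated ones spread widely with replicate 3 lowest. Its relative Ski (-0.80 ± 0.07), Ldlrad4 (-1.6 ± 0.28) and the repressor Tgif2 (-0.26 ± 0.07, a call lost without SB replicate 3) also fell. In total 6 of 10 inhibitors fell and 0 rose (median -0.53). Tgif1 stood at 252, 278 and 269.7 CPM without and 243, 253 and 287 CPM with SB, overlapping, and did not pass.

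The receptors and signal carriers that passed moved the other way. Of 12 tested (13 in the list), 6 rose and 0 fell, with a median of 0.25. Tgfbr1, the type I receptor ALK5, was at 55.2, 61.5 and 53.7 CPM without and 101, 86.1 and 97.1 CPM with SB (0.74 ± 0.08, adjusted p = 7.8e-07). Tgfbr2, the type II receptor for TGF-beta, was at 4.89, 4.42 and 4.27 against 10.8, 10.6 and 10.7 CPM (1.24 ± 0.19, adjusted p = 6.0e-05). Smad2 was at 132, 133 and 134 against 165, 165 and 159.8 CPM (0.30 ± 0.06), a small change between groups that were each tight. Zfyve9, an anchor protein for Smad2, rose by 0.46 ± 0.09. The rises of Smad3 (0.36 ± 0.10, lost without untreated replicate 3 or SB replicate 2) and of the Smad partner Foxh1 (0.24 ± 0.07, lost in every such fit except that without untreated replicate 3) were less stable. Acvr1b, the type I receptor ALK4 through which Activin and Nodal signal, stood at 54, 55.5 and 60.1 against 55.4, 51.1 and 55.3 CPM, and the common carrier Smad4 at 162, 156 and 152 against 159.6, 168 and 164 CPM. These groups overlapped and neither gene passed.

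**Figure D2:**
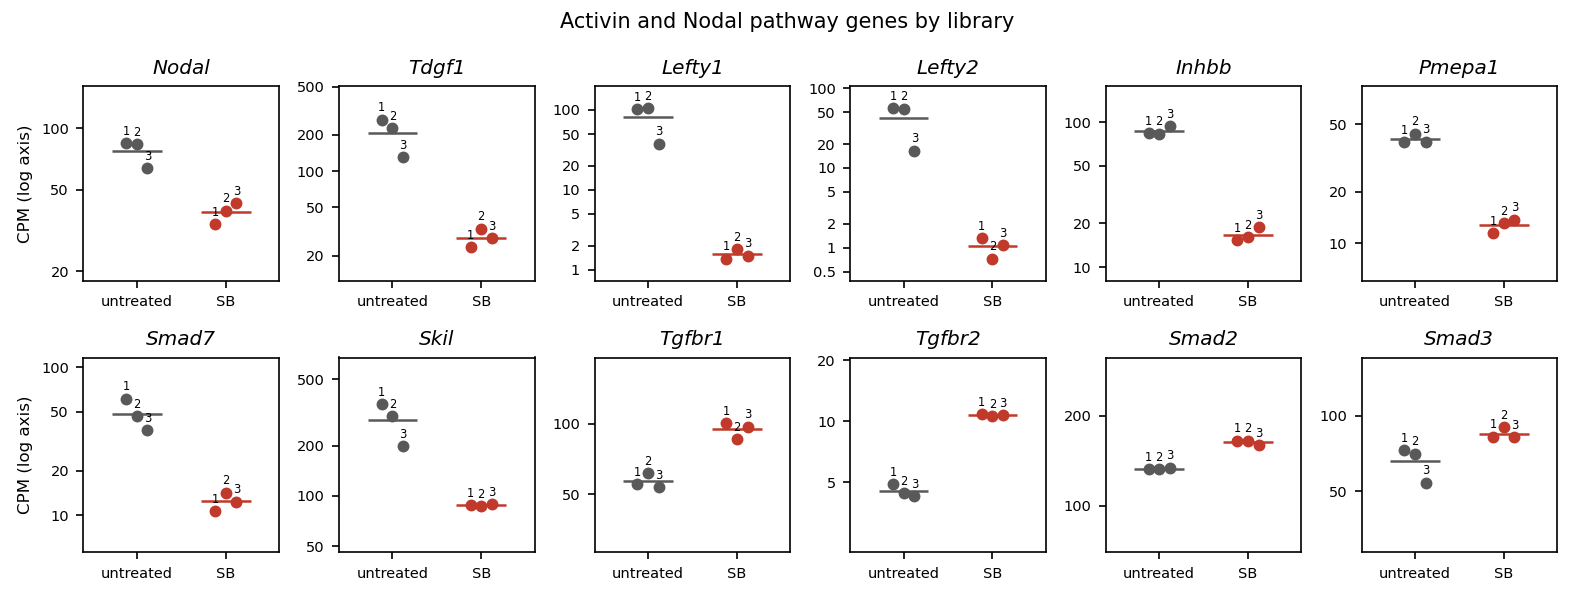
CPM (log axis) of 12 genes in the 3 untreated libraries (grey) and the 3 SB libraries (red) of control siRNA cells, with replicate numbers beside the points and bars at the group means. The ligand, coreceptor, antagonist and inhibitor genes are lower in every SB library, Tgfbr1, Tgfbr2, Smad2 and Smad3 are higher, and untreated replicate 3 is the lowest untreated library for Nodal, Lefty1, Lefty2, Tdgf1, Skil and Smad7, with overlap between the groups for none of the 12.

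Most targets of the BMP pathway rose. Its ligands, receptors and antagonists were called in 16.7% of cases, near the 22.6% of all genes. BMPs signal through other type I receptors to Smad1 and Smad5, and the Id genes, which encode inhibitors of basic helix-loop-helix factors, are their best known targets. Id3 was at 3.12, 3.99 and 3.3 CPM without and 26.6, 23.7 and 24.1 CPM with SB (2.84 ± 0.51, adjusted p = 0.0020). Id1 was at 5.02, 5.73 and 6.14 against 25.1, 24.7 and 18.1 CPM (2.01 ± 0.44, adjusted p = 0.0067), and Id2 at 5.63, 3.91 and 4.12 against 16.7, 18.1 and 17.5 CPM (1.93 ± 0.24, adjusted p = 1.2e-05). Every SB library was well above every untreated library for each of them. Of 10 tested BMP targets 8 rose and 0 fell, with a median of 1.42, the others being Gata2 (2.23 ± 0.24), Hand1 (2.03 ± 0.31), Msx2 (0.80 ± 0.20), Tfap2a (0.70 ± 0.18, lost without untreated replicate 1) and Id4 (0.90 ± 0.28, lost without untreated replicate 2 or 3 or SB replicate 1 or 3). Smad6 and Bambi, inhibitors that BMP also induces, stood at 18.7 ± 2.45 and 8.76 ± 0.756 CPM (mean ± SD, n = 3) without and 16.9 ± 1.74 and 8.3 ± 0.176 CPM with SB and did not pass.

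Of 18 tested BMP ligands, receptors and antagonists 3 rose and 0 fell: the type I receptor gene Bmpr1a (209, 204 and 178 against 249, 257 and 273 CPM, 0.40 ± 0.06), the BMP-binding protein gene Twsg1 (0.27 ± 0.06) and the ligand gene Bmp7 (0.40 ± 0.10). Bmp4 was at 36.8, 33.6 and 34.2 CPM without and 39.1, 39.4 and 40.2 CPM with SB. Its groups did not overlap, as for 37.2% of all genes, but the difference did not pass (adjusted p = 0.26). The Id2 promoter is shown because it holds the GC-rich Smad element GGCGCC, in capitals, in the 250 bases before the RefSeq start (GRCm38.p6, minus strand, chr12:25096093-25096342).

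Id2: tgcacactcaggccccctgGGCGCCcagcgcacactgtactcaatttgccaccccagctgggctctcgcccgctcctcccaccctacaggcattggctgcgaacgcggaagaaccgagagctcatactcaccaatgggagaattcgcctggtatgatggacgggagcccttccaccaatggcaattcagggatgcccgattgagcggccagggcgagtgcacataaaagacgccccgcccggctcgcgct

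That element, searched on both strands, was in 19.7% of the 11013 tested genes with a promoter in the RefSeq table. Among the genes that rose it was in 25.3% and among those that fell in 19.5%. For genes that changed over 2-fold the shares were 22.6% (higher) and 13.5% (lower). The element is made of G and C alone. The median GC content was 60% over all these promoters, 62.8% for the higher and 61.2% for the lower genes. Over 2-fold it was 59.6% and 57.6%. What part GC content has in the shares was not tested. Id4, Gata2 and Ski also held the element, and Id3, Msx2 and Tfap2a did not. The CAGA box CAGACA, a site for Smad3, was in 16.2% of all these promoters, in 16.6% of the higher and in 17.3% of the lower genes. Of the lower ligands and inhibitors with an entry (Nodal, Inhbb, Tdgf1, Fstl3, Ski and Tgif2) Fstl3 held it. Lefty1, Lefty2, Smad7, Pmepa1, Skil and Ldlrad4, which also fell, had no entry and were not searched. The same holds for Id1 and Hand1 among the BMP targets that rose. Both motifs can overlap other sites, and these shares describe letters in a short window.

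FGF signalling genes fell in part, at the ligand, receptor and feedback levels. FGFs act through receptor tyrosine kinases and the kinase ERK, and the Sprouty, Spred and Dusp genes encode feedback inhibitors that ERK raises. Fgfr1, a receptor gene of the family, was at 256, 254 and 260.0 CPM without and 104, 109 and 104 CPM with SB (-1.28 ± 0.07, adjusted p = 1.1e-10), with both groups tight. The ligand gene Fgf4 was at 95.9, 103 and 112 against 43.1, 56.6 and 55.9 CPM (-1.0 ± 0.09), Fgf17 at 22.9, 19.2 and 21.4 against 4.87, 5.86 and 5.23 CPM (-1.99 ± 0.12) and Fgf15 at 15.1, 14.6 and 11.8 against 1.89, 0.941 and 1.5 CPM (-3.25 ± 0.34). No SB library reached an untreated one for these ligands. Of 15 tested ligands and receptors 6 fell and 2 rose (median -0.85). Fgfr4 fell (-0.90 ± 0.23), and so did Fgf5 (-2.85 ± 0.70), whose untreated replicate 3 was at 3.15 CPM against 13.9 and 14.1 in the others and whose call was lost without untreated replicate 1 or 2 or SB replicate 1 or 3 and in a fit of the 6 libraries alone. Fgfr2, a receptor with another ligand range, rose from 35.3, 41.6 and 29.1 to 75.6, 88 and 79.5 CPM (1.2 ± 0.12). The rise of Flrt3 was lost in each fit without 1 library.

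Of 16 targets and feedback inhibitors of ERK 11 fell and 1 rose (median -0.39). Il17rd, an inhibitor of FGF receptor signalling, was at 342, 339 and 211 CPM without and 138, 145 and 147 CPM with SB (-1.06 ± 0.16). Spry4 was at 221, 192 and 168 against 102, 101 and 110.0 CPM (-0.89 ± 0.11), and Spry1 (-0.65 ± 0.09) and Spry2 (-0.50 ± 0.08) fell less. Among the transcription factors Myc was at 46.2, 39.1 and 31.2 against 12.6, 14.8 and 13.2 CPM (-1.52 ± 0.15), and Etv4 (-0.85 ± 0.10), Etv1 (-0.87 ± 0.19) and Etv5 (-0.46 ± 0.10, lost in a fit of the 6 libraries alone) fell too. Untreated replicate 3 was the lowest untreated library for Il17rd, Spry4 and Myc and still above every SB library. The smaller falls of Dusp6, Spred1 and Spred2 and the rise of Dusp5 were each lost without at least 1 of the 6 libraries.

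In the Wnt pathway, several receptors and secreted modulators rose. Its targets were called in 28.6% of cases, against 22.6% of all genes. Of 25 tested ligands, receptors and modulators 10 rose and 2 fell, with a median of 0.47, and without SB replicate 2 the rises numbered 6. Fzd1, a Frizzled receptor, was at 2.78, 2.61 and 3.45 CPM without and 20.4, 23.7 and 19.3 CPM with SB (2.84 ± 0.22, adjusted p = 1.3e-08). The secreted Wnt binder Sfrp2 was at 33.8, 31 and 24 against 77.4, 71.6 and 68.3 CPM (1.29 ± 0.12), its relative Sfrp1 at 116, 117 and 122 against 177, 169.6 and 177 CPM (0.56 ± 0.09) and Dkk3 at 8.62, 10.1 and 8.76 against 23.2, 22.1 and 21.6 CPM (1.28 ± 0.14). All SB libraries were above all untreated libraries for these 4 genes. Fzd2 (0.64 ± 0.11) and Fzd3 (0.64 ± 0.11) rose, while Fzd7, another Frizzled gene, fell from 508, 478 and 454 to 358, 346 and 371 CPM (-0.42 ± 0.06). The ligand gene Wnt8a fell from 8.96, 9.86 and 9.74 to 1.89, 1.52 and 0.716 CPM (-2.78 ± 0.44). Of 14 tested targets 4 fell and 0 rose (median -0.52): Cdx1 (-1.99 ± 0.36), the nuclear partner of beta-catenin Tcf7 (-0.57 ± 0.11), the receptor-degrading ligase gene Rnf43 (-1.15 ± 0.25) and Axin2 (-0.39 ± 0.13). Axin2, a common readout of the pathway, lost its call in 5 of the 6 fits without 1 library, all but that without untreated replicate 2. Falls among the targets numbered 3 without untreated replicate 1 or any SB library, and 6 without untreated replicate 3. Lef1 was at 34.5, 29.4 and 7.49 against 7.49, 10.3 and 7.37 CPM, with untreated replicate 3 in the SB range, and did not pass (adjusted p = 0.072).

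Notch genes that passed mostly fell. Notch passes signals between touching cells, with Jagged and Delta proteins as ligands. Of 15 tested genes 7 fell and 1 rose (median -0.45). The receptor gene Notch3 was at 203, 221 and 180.3 CPM without and 129, 136 and 111 CPM with SB (-0.68 ± 0.09) and Notch2 at 161, 172 and 167 against 239.8, 241 and 235 CPM (0.52 ± 0.06). Notch4, which is not in the list and was named after its value was seen, was at 19.3, 20.7 and 13 against 4.29, 5.21 and 4.8 CPM (-1.89 ± 0.22), and Notch1, at 124, 123 and 140.0 against 143, 147 and 127 CPM, did not pass. The ligand genes Jag1 (-0.92 ± 0.15) and Jag2 (-0.45 ± 0.11), the Fringe gene Mfng (-0.62 ± 0.13) and the target Nrarp (-0.51 ± 0.12) fell, and the falls of Hey1 and Dll1 were lost without some libraries. Hes1 was at 28.3, 28.5 and 39.2 against 28.1, 23.7 and 28.2 CPM and did not pass.

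Hedgehog genes leaned higher, with 5 of 16 up and 2 down (median 0.32). Ptch1, the receptor and a target of the pathway, was at 248, 270.3 and 273 CPM without and 481, 363 and 449 CPM with SB (0.71 ± 0.10). The signal carrier Smo (0.49 ± 0.08), Nkx2-9 (5.9, 6.38 and 9.66 against 24.6, 16.6 and 20.4 CPM, 1.49 ± 0.23) and Gli3 (0.42 ± 0.09) rose. The target Gli1 was at 105, 118 and 169 against 183, 120.2 and 155 CPM, overlapping, and did not pass. The fall of Gli2 and the rise of Boc were lost without some libraries, and the falls in the list numbered 0 without SB replicate 2 and 1 without any of the other 5 libraries.

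Genes that make, bind, break down or respond to retinoic acid changed in both directions. This derivative of vitamin A activates the RAR and RXR receptors. Aldh1a2, the enzyme that makes it in the early embryo, was at 2.1, 2.61 and 2.62 CPM without and 16, 13.3 and 14.5 CPM with SB (2.58 ± 0.20, adjusted p = 1.2e-08). Cyp26a1, which breaks it down and is itself induced by it, was at 8.28, 7.9 and 6.44 against 39.8, 32.8 and 37.5 CPM (2.28 ± 0.55, adjusted p = 0.012). Stra8, induced by retinoic acid, was at 235, 234 and 279 against 513, 471 and 519.6 CPM (1.01 ± 0.14). These groups did not overlap, and each enzyme gene rose over 4-fold. Cyp26b1 (1.6 ± 0.26), the nuclear receptor genes Rxra (0.65 ± 0.08) and Nr2f2 (2.08 ± 0.37) and the homeobox gene Meis1 (0.95 ± 0.14) rose too. In contrast the receptor gene Rara was at 189.8, 195 and 192 against 71.1, 78.6 and 76.2 CPM (-1.35 ± 0.08, adjusted p = 3.3e-10), the receptor genes Rarg (-0.53 ± 0.07) and Rxrb (-0.43 ± 0.08) fell, and Dhrs3, which turns retinal back to retinol, was at 23.8, 26.2 and 15.7 against 4.87, 4.63 and 5.08 CPM (-2.17 ± 0.25). In all 11 of 23 tested genes rose and 4 fell (median 0.55). Cyp26a1 was named after its value was seen.

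Pluripotency genes of the core, naive and primed lists fell in part. Pou5f1, which encodes Oct4 and marks the labelled cell type, was at 688, 673 and 741 CPM without and 333, 375 and 385 CPM with SB (-0.94 ± 0.06, adjusted p = 2.6e-09), so that it was present in every library. Utf1 was at 925, 931 and 762 against 417, 528 and 448 CPM (-0.91 ± 0.08), Dppa5a at 253, 196 and 197 against 64.6, 72.4 and 76.5 CPM (-1.6 ± 0.09) and Dppa2 at 48, 48.6 and 37.6 against 18, 17.7 and 17.8 CPM (-1.33 ± 0.11). No SB library reached the untreated range for these 4 genes. Sox2 was at 966, 815 and 688 against 612, 621 and 618 CPM (-0.42 ± 0.09), and Nanog, named after its value was seen, at 423, 428 and 359 against 232, 307 and 319.7 CPM (-0.49 ± 0.09). Of 16 core genes 10 fell and 1 rose (median -0.46). The rise was that of Lin28a, which blocks the let-7 microRNA family, at 366, 349 and 342 against 574, 586 and 570.0 CPM (0.71 ± 0.08), and the rises numbered 2 without SB replicate 1. The list shares Tdgf1 with the Nodal ligands.

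Of 20 naive genes 7 fell and 1 rose (median -0.24), and 4 fell without untreated replicate 2 or SB replicate 1. Besides Fgf4, Tcl1 fell from 35.3, 34.6 and 33.7 to 12.7, 17.9 and 17.5 CPM (-1.11 ± 0.11), and Socs3 (-0.59 ± 0.10) fell. Klf4, at 166, 169.7 and 176 against 121, 164 and 145 CPM, Esrrb, at 599, 609 and 861 against 488, 557 and 615 CPM, and Zfp42, at 189, 167 and 187 against 166, 158 and 181 CPM, are regulators or marks of the naive state and did not pass. The rise, that of the secreted phosphoprotein gene Spp1, was lost without any library except untreated replicate 3. The differences between the naive, core and primed lists were not tested.

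Of 19 genes of the formative and primed epiblast 11 fell and 3 rose (median -0.69). Besides Fgf15, Etv4 and Fgf5, the neural plate and epiblast factor gene Zic2 was at 191, 166 and 106 CPM without and 60.6, 74.3 and 58.4 CPM with SB (-1.26 ± 0.18) and the epithelial regulator Grhl2 at 22.5, 21.2 and 19.8 against 11.3, 10.5 and 8.66 CPM (-1.06 ± 0.13). Foxd3 (-2.03 ± 0.36), Zic5 (-0.69 ± 0.11), Pou3f1 (-1.55 ± 0.27) and Sall2 (-0.77 ± 0.19) fell too, the last pair named after their values were seen. Sox11, a neural progenitor factor, rose from 58.1, 43.8 and 47.6 to 125, 103 and 97.3 CPM (1.12 ± 0.12), and Sox4 by 0.43 ± 0.08. Otx2 stood at 170.1, 157 and 54.3 against 87.6, 104 and 101 CPM. Its untreated replicate 3 lay below every SB library and replicates 1 and 2 above, and the gene did not pass (adjusted p = 0.47).

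Some enzymes that write and erase DNA methylation fell. Tet1, which oxidises methylated cytosine, was at 885, 867 and 940.4 CPM without and 353, 439 and 468 CPM with SB (-1.1 ± 0.20, adjusted p = 0.0019), and Tet2 at 229, 242 and 228 against 94.3, 105 and 109 CPM (-1.18 ± 0.20, adjusted p = 0.0011). Tet3, the third of these enzymes, was at 29.3, 36.2 and 41.1 against 73.6, 67.6 and 59.8 CPM (0.92 ± 0.12, adjusted p = 1.2e-05). Thus Tet1 and Tet2 were lower and Tet3 higher in every SB library than in any untreated one. The de novo methyltransferase gene Dnmt3a fell from 479, 495 and 334 to 225, 253 and 254 CPM (-0.84 ± 0.12) and its cofactor Dnmt3l from 106, 106 and 107 to 57.1, 72.9 and 54.9 CPM (-0.79 ± 0.10). Uhrf1, which guides maintenance methylation, rose slightly (0.28 ± 0.06). Dnmt3b, at 255, 245 and 223 against 238, 275 and 236 CPM, and Dnmt1, at 505, 518 and 542 against 514, 522 and 537 CPM, did not pass. In all 4 of 14 tested genes fell and 2 rose.

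Polycomb complexes silence developmental genes through histone marks. Of 27 of their genes 8 fell and 4 rose (median -0.04), with 5 falls without untreated replicate 1 or 2 and 3 without SB replicate 1. The abundant members Jarid2 (916, 928 and 868 against 625, 728 and 739.5 CPM, -0.37 ± 0.08) and Phc1 (1314, 1466 and 1644 against 925, 1132 and 1108 CPM, -0.48 ± 0.11) fell, Bmi1 (0.59 ± 0.14) and Phc2 (0.43 ± 0.09) rose, and the methyltransferase gene Ezh2 stood at 149, 145 and 149 against 141, 142 and 156 CPM.

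**Figure D3:**
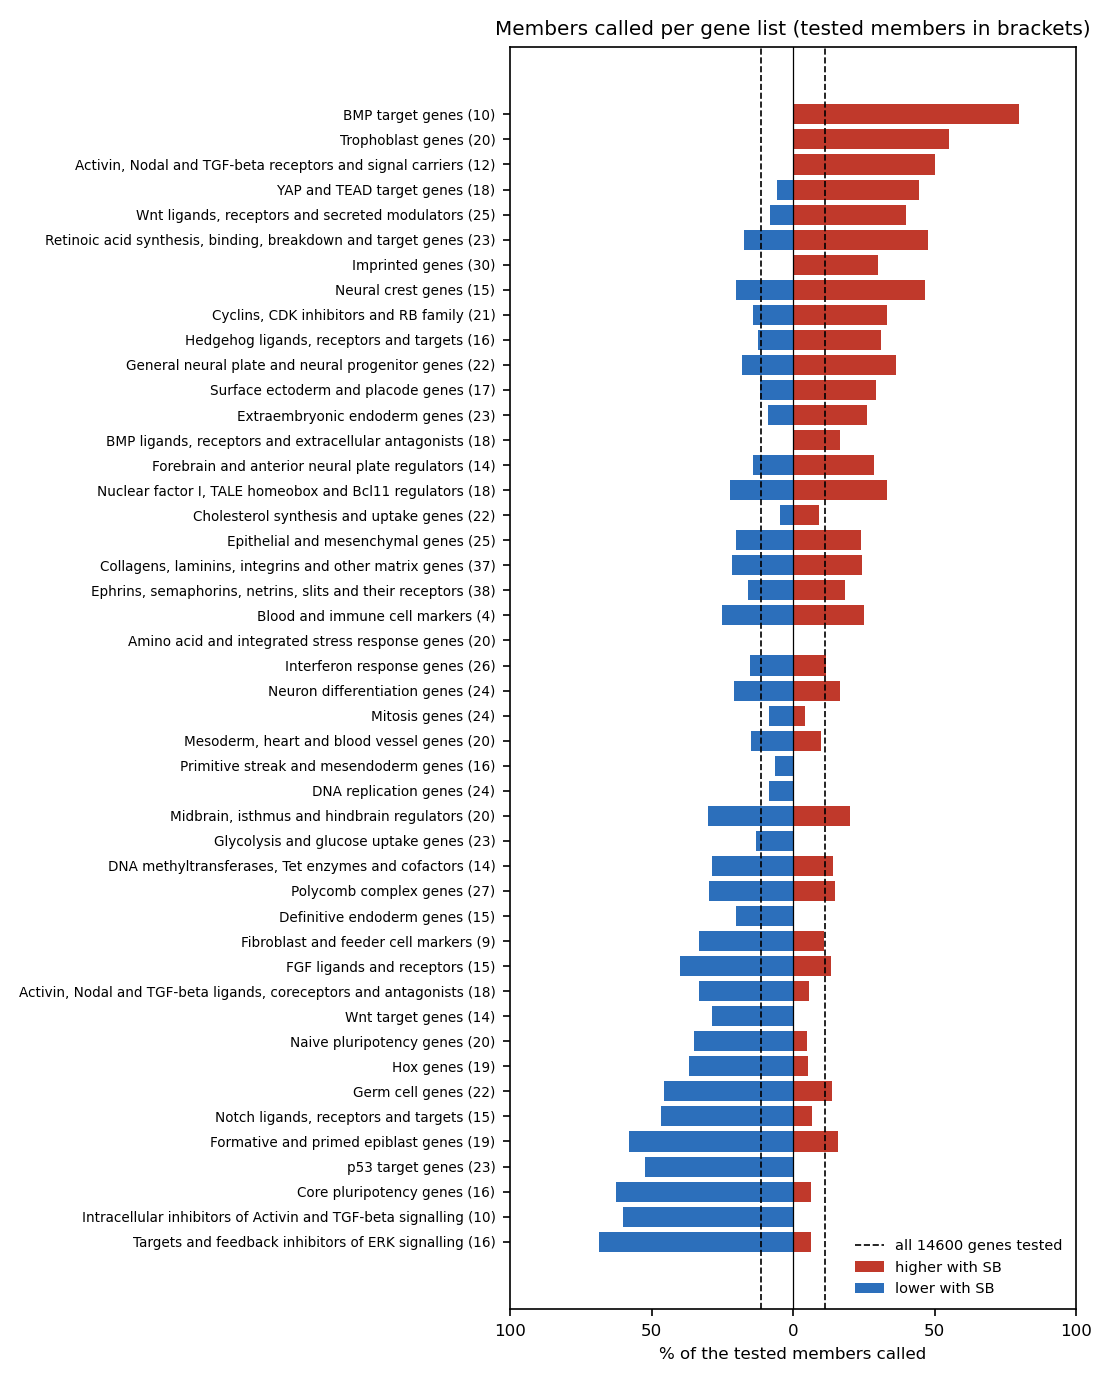
Percentage of tested members called higher (red, to the right) or lower (blue, to the left) with SB for each of 46 gene lists, with the number tested in brackets. Dashed lines mark the 11.2% and 11.3% of all 14600 genes that were called higher and lower. Lists share members, were chosen with earlier results of these libraries known, and small lists move by many points per gene.

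Several regulators of the anterior nervous system rose from low levels. Hesx1, a homeobox gene of the anterior forebrain and pituitary, was at 1.56, 2.1 and 1.42 CPM without and 23.2, 20.1 and 23.1 CPM with SB (3.7 ± 0.22, adjusted p = 5.2e-10). Lmx1b, a LIM homeobox gene of the midbrain and isthmus, was at 0.543, 0.652 and 1.2 against 17.9, 15.1 and 12.2 CPM (4.24 ± 0.35, adjusted p = 6.4e-08). Pax6, an early forebrain and eye gene, was at 27.5, 27.3 and 23.3 against 42.4, 41.4 and 46 CPM (0.73 ± 0.13). For Hesx1 and Lmx1b the lowest SB library was still far above the highest untreated one. Of 14 tested forebrain and anterior plate genes 4 rose and 2 fell (median 0.29), with 8 more of the list below the filter. The falls numbered 1 without untreated replicate 2 and 4 without untreated replicate 3. Nkx2-1 was at 0.0678, 0 and 0.0749 CPM without SB, which is 0 or 1 count, and at 3.05, 1.3 and 1.0 CPM with it, and Six3 at 0.407, 0.145 and 0.15 against 3.42, 1.59 and 2.08 CPM, a call that any left-out library removed. Bcl11a, a zinc finger gene of the cortex and of blood, was at 8.35, 9.86 and 6.29 against 1.02, 0.724 and 1.0 CPM (-3.15 ± 0.25).

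Of 20 tested midbrain, isthmus and hindbrain genes 4 rose and 6 fell (median -0.18). En1 was at 0.95, 1.3 and 1.12 CPM without and 3.13, 3.4 and 3.08 CPM with SB (1.5 ± 0.39), while its paralog En2 was at 5.43, 6.02 and 5.62 against 1.74, 2.68 and 1.86 CPM (-1.44 ± 0.22). Irx3 (0.83 ± 0.21) and Irx5 (0.97 ± 0.24) rose. Fgf17, Pax8 (-1.53 ± 0.30), Pax2 (-1.22 ± 0.30) and Hoxb1 (-1.49 ± 0.28), genes of the isthmus or hindbrain, fell, and the fall of Gbx2 was lost without untreated replicate 1 or 2 or SB replicate 1 or 3. The list thus holds neighbouring genes of the same region in both directions.

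General neural plate genes were split in the same way. Of 22 tested 8 rose and 4 fell (median 0.13). Prtg, a neural plate immunoglobulin gene, was at 164, 144 and 126 CPM without and 283, 272 and 221 CPM with SB (0.84 ± 0.11), Msi1 at 57.3, 53.1 and 68.3 against 82.9, 85.2 and 80.2 CPM (0.47 ± 0.08), and Sox21 at 15.3, 15.5 and 13.3 against 28.3, 29.7 and 30.4 CPM (1.0 ± 0.17). Zfp521, which drives neural conversion of embryonic stem cells, rose by 0.95 ± 0.14. In the other direction, Sox1, the earliest definitive neural plate marker, was at 56.2, 50.6 and 53.6 against 30.8, 32.5 and 24.1 CPM (-0.88 ± 0.13, adjusted p = 5.3e-05), and Sox3 at 17, 12.6 and 18.9 against 5.74, 8.46 and 6.01 CPM (-1.26 ± 0.21). Nes stood at 24, 26.8 and 31.5 against 34.2, 32.3 and 23.5 CPM. The summed CPM of the list ranged from 1357 to 1729 without and from 1340 to 1464 with SB.

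Of 24 tested genes of neuron differentiation 4 rose and 5 fell (median -0.16). Stmn2, a growth cone gene, was at 81.1, 83.7 and 76.9 CPM without and 34.1, 31.5 and 32.2 CPM with SB (-1.3 ± 0.08, adjusted p = 6.8e-10), Elavl3 at 32.1, 30.4 and 35.4 against 18.2, 16 and 18.4 CPM (-0.90 ± 0.10) and Neurod1 at 22.6, 25.2 and 23 against 7.12, 12.2 and 9.95 CPM (-1.27 ± 0.22). Neurog3 (1.64 ± 0.27), Ebf2 (1.59 ± 0.35) and Onecut2 (0.77 ± 0.19) rose from lower levels. Tubb3, the neuronal tubulin, stood at 66.6, 65.1 and 88.2 against 68, 67.4 and 60.6 CPM and did not pass, and the summed CPM of the list was lower in every SB library, 270 to 295 against 367 to 400.

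Among the nuclear factor I, TALE homeobox and related regulators 6 of 18 rose and 4 fell (median 0.09). Nfix, a nuclear factor I gene of neural stem cells, was at 4.34, 5.58 and 4.79 CPM without and 33.4, 27.6 and 28.6 CPM with SB (2.61 ± 0.20, adjusted p = 9.7e-09). Zbtb16, a zinc finger gene of progenitor cells, was at 2.24, 1.38 and 2.02 against 13.6, 14.8 and 11.4 CPM (2.81 ± 0.37), and Meis3 at 3.8, 3.7 and 3.82 against 9.81, 9.69 and 9.59 CPM (1.36 ± 0.18). Bcl11b (-1.96 ± 0.34) fell like Bcl11a.

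Many trophoblast genes rose, while Cdx2 and Eomes, which direct the lineage, did not pass. Peg10, an imprinted gene needed for the placenta, was at 522, 604 and 641 CPM without and 1369, 1632 and 1389 CPM with SB (1.31 ± 0.09, adjusted p = 2.6e-09). Esx1, an X-linked homeobox gene of the placenta, was at 4.82, 5.94 and 6.89 against 22.7, 27.2 and 24.1 CPM (2.07 ± 0.19). Gata2 was at 3.26, 2.54 and 4.04 against 17.5, 14.7 and 13.9 CPM, Hand1 at 2.85, 2.97 and 3.0 against 11.8, 14.5 and 9.67 CPM and Gata3 at 1.09, 1.38 and 1.12 against 2.98, 5.35 and 4.8 CPM (1.87 ± 0.38). Of 20 tested members 11 rose and 0 fell (median 0.62), with 1 fall without untreated replicate 3, and the list shares Gata2 and Hand1 with the BMP targets. The keratin gene Krt7 (1.58 ± 0.35, named after its value was seen) and Phlda2 (0.85 ± 0.18) rose as well. Cdx2, at 1.36, 1.3 and 0.674 against 1.02, 0.724 and 0.501 CPM, and Eomes, at 13, 12 and 8.09 against 7.2, 6.87 and 7.88 CPM, were low, Tpbpa had no count in any of the 6 libraries, and Elf5 had none without SB and at most 0.358 CPM with it. The summed CPM of the list ran from 839 to 937 without and 1809 to 2101 with SB, of which Peg10 alone made 522 to 641 and 1369 to 1632.

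Imprinted genes, expressed from the copy of 1 parent, rose or did not pass: 9 of 30 tested rose and 0 fell (median 0.21). Igf2, a growth factor gene, was at 77, 85.5 and 95.6 CPM without and 440.3, 437 and 349.5 CPM with SB (2.25 ± 0.53, adjusted p = 0.012). Its neighbour H19, a noncoding RNA from the other parental copy, was at 134, 104 and 90.9 against 336, 422 and 344 CPM (1.74 ± 0.41, adjusted p = 0.011). Both rose over 3-fold, with no overlap between groups. Nnat was at 25.5, 31.4 and 24 against 67.5, 55.6 and 51.1 CPM (1.11 ± 0.13), the growth inhibitor gene Cdkn1c at 45.9, 46.1 and 73.9 against 153, 117 and 105 CPM (1.18 ± 0.23), and Plagl1 (0.68 ± 0.15) and Sgce (0.63 ± 0.14), the neighbour of Peg10, rose too. The rise of Mest was lost in each fit without 1 library.

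Genes of the surface ectoderm and the neural crest changed in both directions. Of 17 tested ectoderm and placode genes 5 rose and 2 fell (median 0.40), with 3 rises without untreated replicate 1. Dlx3 was at 6.99, 7.83 and 8.54 CPM without and 13.1, 17.1 and 15.2 CPM with SB (0.96 ± 0.14) and the placode gene Eya1 at 3.94, 3.62 and 4.49 against 10.7, 8.9 and 11.9 CPM (1.38 ± 0.22), while Foxi3 fell (-1.35 ± 0.27). Of 15 tested crest genes 7 rose and 3 fell (median 0.57), against 3 rises and 3 falls without untreated replicate 1, 3 and 4 without untreated replicate 2, and 4 and 3 without SB replicate 1. Sox9 was at 1.56, 2.32 and 1.65 against 11.6, 8.25 and 10.6 CPM (2.46 ± 0.50) and Ets1 at 8.62, 8.7 and 11.4 against 17.7, 16.7 and 16.6 CPM (0.83 ± 0.15). Sox10, a crest marker, fell from 5.5, 7.1 and 6.74 to 2.91, 2.6 and 2.29 CPM (-1.31 ± 0.20) and the receptor gene Erbb3 from 41.3, 38.6 and 37.1 to 18.7, 27.7 and 21.1 CPM (-0.79 ± 0.11).

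Primitive streak genes, many of which Nodal induces in the embryo, were low in both groups. Of 16 tested 1 fell, Mesp2 (8.01, 9.64 and 10.9 against 4.94, 4.41 and 6.23 CPM, -0.87 ± 0.20), and 0 rose (median -0.42). Without untreated replicate 2 the falls numbered 2. T (brachyury) stood at 2.37, 2.1 and 2.62 CPM without and 2.11, 1.09 and 3.58 CPM with SB and Mixl1 at 1.15, 1.16 and 1.12 against 1.24, 1.66 and 1.36 CPM. The summed CPM of the 19 genes of the list was 41.9 to 50.3 without and 35.7 to 49.6 with SB. Of 15 tested definitive endoderm genes 3 fell and 0 rose (median -0.18), with 1 rise without untreated replicate 3. The share called, 20%, was near the 22.6% of all genes. Trh, a hormone precursor gene, was at 219, 174 and 74.9 against 41.3, 46 and 41.8 CPM (-1.86 ± 0.44), Foxa1 at 15.7, 11.7 and 8.99 against 5.96, 4.2 and 4.37 CPM (-1.33 ± 0.28) and Apela, which encodes a ligand of the apelin receptor, at 38.4, 39.4 and 35 against 18.4, 22.1 and 26.1 CPM (-0.76 ± 0.10). Untreated replicate 3 was the lowest untreated library for Trh, at a level nearer to SB than to untreated replicate 1, and its call was lost in a fit of the 6 libraries alone. Sox17 stood at 1.83, 2.83 and 1.57 against 2.11, 1.88 and 1.36 CPM.

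Of 23 tested genes of the extraembryonic endoderm 6 rose and 2 fell (median -0.0047). The rises were those of the basement membrane genes Col4a1 (141, 163 and 128 against 263, 239 and 208 CPM, 0.71 ± 0.17), Col4a2 (0.78 ± 0.16), Lama1 (0.59 ± 0.14) and Lamb1 (0.48 ± 0.08), of Plat (1.55 ± 0.17), the tissue plasminogen activator, and of Sox7 (0.92 ± 0.19). The regulators Gata6, at 22.1, 18.5 and 20.3 against 14.4, 15 and 14.3 CPM, and Sox17 did not pass. The falls of Lamc1 and Amn were both lost without SB replicate 1 or 2, that of Lamc1 also without untreated replicate 3 and that of Amn also without untreated replicate 1. Mesoderm and heart genes were called in 5 of 20 cases, near the share of all genes, with Tcf15 (116, 101 and 88.5 against 34.1, 51.3 and 35.3 CPM, -1.34 ± 0.15) and Pecam1 (-0.71 ± 0.12) among 3 that fell. The rises, those of Foxc1 and Acta2, numbered 0 without untreated replicate 1 and 1 without untreated replicate 2 or 3 or SB replicate 2.

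Of 22 germ cell genes 10 fell and 3 rose (median -0.40). Mael, which guards the germ line against transposons, was at 44.2, 39.1 and 55.3 CPM without and 22, 18.7 and 18.5 CPM with SB (-1.23 ± 0.14), Tdrd1 at 13.6, 13.8 and 16.5 against 7.34, 6.15 and 5.3 CPM (-1.22 ± 0.14), Dazl at 23.7, 21 and 15.9 against 9.23, 13 and 11.4 CPM (-0.85 ± 0.14) and Ddx4 at 47.7, 53.6 and 50.3 against 34.2, 34.9 and 38.2 CPM (-0.50 ± 0.10). The meiosis genes Stra8 and Rec8 (125, 136 and 132 against 237, 198 and 191 CPM, 0.67 ± 0.11) rose, as did the receptor gene Kit (0.39 ± 0.08). The summed CPM of the list, which holds Stra8, was 1070 to 1088 without and 1343 to 1388 with SB. Hox genes, low in all libraries, fell in 7 of 19 tested cases and rose in 1 (median -0.55). Hoxb5 was at 2.44, 1.09 and 1.57 against 0.363, 0.217 and 0.0716 CPM (-2.93 ± 0.53), Hoxb1 at 8.41, 8.26 and 7.49 against 4.58, 2.53 and 1.5 CPM, Hoxa3 at 13.8, 12 and 11.7 against 8.14, 6.29 and 6.73 CPM (-0.83 ± 0.19), and Hoxc4 rose from 5.63, 7.18 and 5.77 to 13.8, 10.1 and 11.7 CPM (0.94 ± 0.21).

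**Figure D4:**
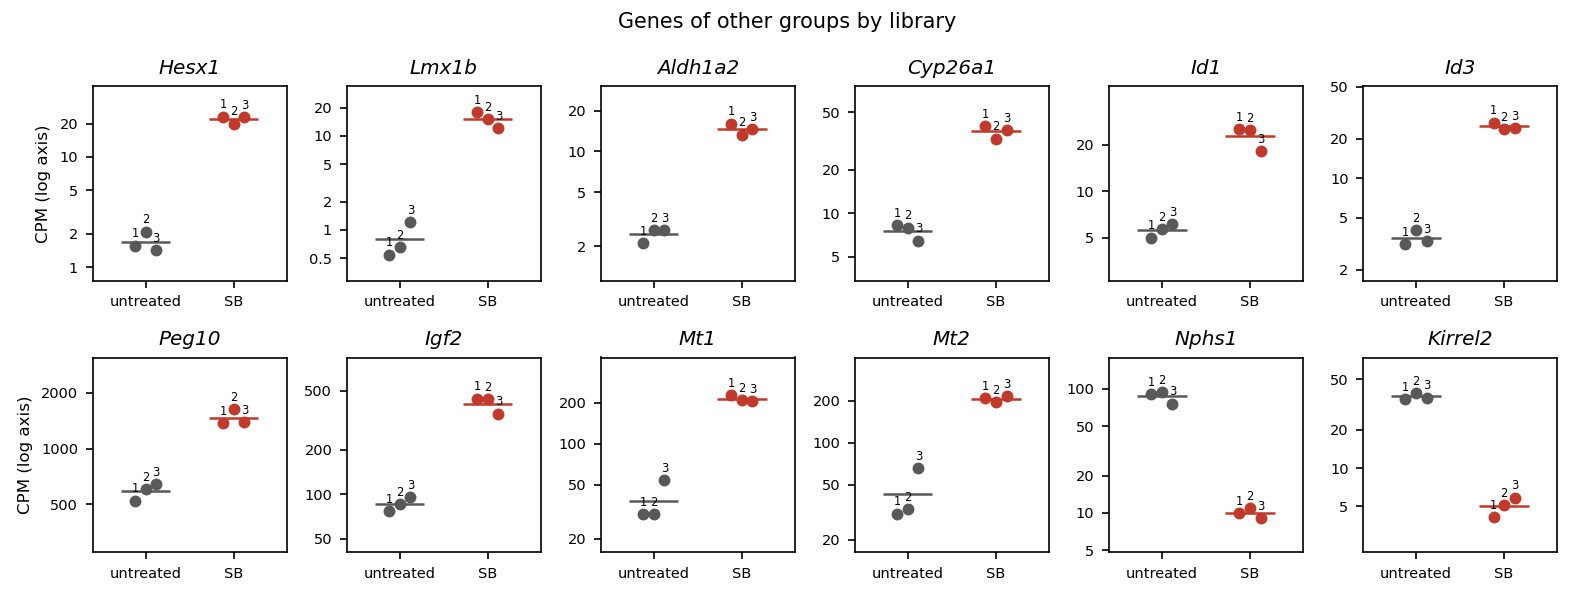
CPM (log axis) of 12 genes of other groups in the 3 untreated (grey) and 3 SB libraries (red), with replicate numbers beside the points and bars at the group means. Values run from under 1 CPM for Lmx1b in untreated cells to 1632 CPM for Peg10 with SB, and the groups are apart for every gene shown.

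Few genes of DNA replication or mitosis passed, and inhibitors of the cycle changed in both directions. Of 24 DNA replication genes 2 fell and of 24 mitosis genes 2 fell and 1 rose, all of them calls lost without some library, against 22.6% called over all genes. Mki67 stood at 826, 863 and 714 CPM without and 859, 796 and 878 CPM with SB. Of 21 cyclins, CDK inhibitors and related genes 7 rose and 3 fell (median 0.04), with 3 rises without untreated replicate 1 and 4 without untreated replicate 2 or SB replicate 1 or 2. Cdkn2a was at 10.7, 11.5 and 11.7 against 23.4, 20.8 and 16.8 CPM (0.85 ± 0.16) and Cdkn1b at 87.4, 81 and 72.1 against 105, 97.1 and 112 CPM (0.39 ± 0.08), both inhibitors of cyclin-dependent kinases, while Cdkn1a, another inhibitor, fell from 90.5, 99.1 and 125 to 81.3, 78.9 and 88.6 CPM (-0.34 ± 0.09), a call lost without untreated replicate 3 or SB replicate 2. In the p53 target list, which holds Trp53, 12 of 23 genes fell and 0 rose (median -0.22). Fits without 1 library gave 9 to 11 falls, and 1 rise without untreated replicate 3. Those that fell included the cell death gene Pmaip1 (41.8, 37.7 and 27.9 against 13.8, 16 and 14.7 CPM, -1.27 ± 0.12), Bbc3 (-0.40 ± 0.10), Mdm2 (-0.33 ± 0.08) and Trp73 (-1.0 ± 0.16). Trp53 itself was at 646, 698 and 603 against 471, 556 and 518 CPM (-0.33 ± 0.07).

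Some epithelial adhesion genes fell, and matrix genes changed in both directions. Cdh1, the epithelial cadherin, was at 701, 690.1 and 794 CPM without and 523, 522 and 552 CPM with SB (-0.45 ± 0.07) and Epcam at 138, 137 and 147 against 86.6, 92 and 93.1 CPM (-0.64 ± 0.08). Grhl2, Rab25 (-1.09 ± 0.23) and Ovol2 (-0.80 ± 0.20) fell too, and the repressor of Cdh1, Snai1, rose from 5.09, 5.58 and 7.94 to 16.1, 16.9 and 11.2 CPM (1.25 ± 0.23). In all 6 of 25 tested genes of epithelium and mesenchyme rose and 5 fell (median 0.24). The falls numbered 5 in each fit without 1 library, but the rises, which included the epithelial genes Ocln, Krt18 and Esrp2, numbered 3 without untreated replicate 1, 2 without untreated replicate 2, and 1 without SB replicate 1 or 2. The mesenchymal filament gene Vim stood at 104, 114 and 123 against 96.1, 102 and 86.2 CPM. Of 37 tested matrix and integrin genes 9 rose and 8 fell (median 0.07). Itga3, a laminin receptor gene, was at 201, 219 and 216 against 359, 373 and 311 CPM (0.71 ± 0.07) and Itga6, another, at 265, 262 and 286 against 187, 213 and 201 CPM (-0.44 ± 0.07). Ctgf, which TGF-beta and YAP raise, was at 81.8, 85.2 and 56.3 against 24.5, 38.4 and 28.8 CPM (-1.28 ± 0.23), while the basement membrane gene Lamc1 (-0.27 ± 0.08), Col1a1 (-1.0 ± 0.19), Thbs1 (-0.90 ± 0.21, lost without the 3 libraries that lay apart) and Tnc (-1.55 ± 0.35) fell.

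Of 18 genes of YAP, the effector of the Hippo pathway, 8 rose and 1 fell (median 0.22), with 5 rises without SB replicate 1 and 4 without SB replicate 2. The fall was that of the target Ctgf, and Cyr61, Ankrd1 and Axl of the same list did not pass. Amotl2 was at 85.9, 93.6 and 94.2 CPM without and 194, 203 and 169 CPM with SB (1.05 ± 0.10), Lats2 at 11.1, 11.2 and 8.39 against 23.7, 25.2 and 17.5 CPM (1.12 ± 0.16) and Ptpn14 at 229, 259 and 212 against 318, 355 and 327 CPM (0.51 ± 0.08). Among ephrins, semaphorins, netrins, slits and their receptors 7 of 38 rose and 6 fell (median 0.16). The receptor gene Ephb1 was at 2.04, 1.38 and 1.27 against 9.09, 9.84 and 10.0 CPM (2.61 ± 0.21), Ntn1 at 30.3, 29.2 and 32.3 against 82.2, 56.4 and 62.9 CPM (1.13 ± 0.25) and Epha2 at 161, 145 and 104 against 37.1, 33.5 and 30.6 CPM (-2.02 ± 0.21).

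Few genes of metabolism or of the stress response passed. Of 22 cholesterol genes 2 rose and 1 fell, each call lost without some library, and the rises ran from 0 (without untreated replicate 2 or SB replicate 1) to 4 (without SB replicate 2). Of 23 glycolysis genes 3 fell, and this count ran from 0 (without untreated replicate 1 or SB replicate 2) to 7 (without untreated replicate 3). Slc2a1, the glucose transporter, stood at 1424, 1307 and 718 CPM without and 1188, 1375 and 1169 CPM with SB, with untreated replicate 3 the lowest of the 6. Of 20 amino acid and integrated stress genes edgeR called 0 and DESeq2 called 1, while 2 had an edgeR p under 0.05 before adjustment. In that list 5 rose without untreated replicate 3, and 14 rose without the 3 libraries that lay apart. Atf4, the regulator of that response, stood at 198, 219 and 446 against 295, 310.3 and 294 CPM, so that untreated replicate 3 was above and replicates 1 and 2 below every SB library. Of 26 tested interferon response genes 3 rose and 4 fell, close to the share of all genes. The RNA sensor gene Ddx58 was at 16.2, 17.5 and 12.5 against 43.4, 38.8 and 38.9 CPM (1.39 ± 0.16) and B2m at 27.6, 28.6 and 38.4 against 58.8, 55.6 and 61.5 CPM (0.90 ± 0.13), while Ifitm3 fell from 84.1, 86.2 and 78.6 to 51.5, 57.3 and 51.6 CPM (-0.63 ± 0.08).

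The largest changes of genes at a mean log2 CPM from 1 upward included further regulators and membrane proteins. Tmem132e, a membrane protein gene, was at 0.407, 0.362 and 0.974 CPM without and 18.2, 8.68 and 10.7 CPM with SB (4.43 ± 0.37), the largest rise. Epn3 was at 0.814, 0.942 and 1.35 against 8.0, 7.02 and 7.88 CPM (2.88 ± 0.27), Coch at 1.56, 1.59 and 1.95 against 13.1, 12.5 and 11.2 CPM (2.85 ± 0.33) and Lrrn2 at 4.75, 2.61 and 2.1 against 20.1, 17.2 and 16.5 CPM (2.49 ± 0.26). SB replicate 1 was the highest for Tmem132e, at more than 1.5 times the other SB libraries. Large falls beside those of the Lefty genes were those of Tmem154 (-3.26 ± 0.46), Ndnf (-2.94 ± 0.40) and Ndufa4l2 (-2.88 ± 0.68). Mup6 (2.1, 3.55 and 0.749 against 0.145, 0.0723 and 0.286 CPM) and the interferon response gene Zbp1 (1.7, 0.725 and 0.599 against 0, 0.0723 and 0.143 CPM) fell to a few counts per library, where the size of the fold is imprecise.

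Nphs1, which encodes nephrin, an adhesion protein best known from the kidney filter, was at 90.6, 94.5 and 76.3 CPM without and 9.88, 10.9 and 9.09 CPM with SB (-3.13 ± 0.21, adjusted p = 5.7e-07). Among abundant genes, those with a mean of at least 100 CPM, the largest falls after Tdgf1, Skil and Dppa5a were those of Igfbp2, an IGF-binding protein gene, at 686, 611 and 539 against 219, 236 and 217 CPM (-1.45 ± 0.11), Rara, and Pdzd4 at 194, 194 and 149 against 61.1, 83.5 and 74.2 CPM (-1.3 ± 0.12). The largest rises among abundant genes were those of the metallothionein genes Mt1 and Mt2, Ephx2, Igf2, Cd24a and H19. Ephx2, an epoxide hydrolase gene, was at 69, 71.3 and 90.4 against 408, 336 and 389.8 CPM (2.3 ± 0.17), and the surface glycoprotein gene Cd24a at 42.9, 44.9 and 44.7 against 212, 179 and 199.8 CPM (2.16 ± 0.33). These libraries fell into separate ranges for every gene of this paragraph.

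Metallothioneins are small proteins that bind zinc and copper, and metals raise their genes through the factor MTF1. Mt1 (chromosome 8, 94178883 to 94180327) was at 30.2, 30.4 and 53.7 CPM without and 227, 208 and 205 CPM with SB (2.49 ± 0.35, adjusted p = 0.00045). Mt2 (chromosome 8, 94172618 to 94173567), its neighbour, was at 30.9, 33.1 and 65.3 against 208, 196 and 216 CPM (2.26 ± 0.45, adjusted p = 0.0049). Untreated replicate 3 was the highest untreated library for both, and still far below every SB library. Mt3, the next gene of the cluster, named after its value was seen, was at 3.8, 4.78 and 3.15 against 6.4, 7.74 and 5.66 CPM (0.75 ± 0.20), a call lost without SB replicate 2. Their promoters are shown because the genes moved together and hold the core of the metal response element, TGCACNC or TGCGCNC, in capitals. The Mt2 stretch is the 250 bases before the RefSeq start (GRCm38.p6, plus strand, chr8:94172368-94172617). The Mt1 stretch is the last 30 bases before a start in the RefSeq promoter table (plus strand, chr8:94179059-94179088), which lies inside the longer RefSeq gene record. Matches further upstream of that start are not given, so that the numbers of matches in Mt1 and Mt2 cannot be compared.

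Mt2: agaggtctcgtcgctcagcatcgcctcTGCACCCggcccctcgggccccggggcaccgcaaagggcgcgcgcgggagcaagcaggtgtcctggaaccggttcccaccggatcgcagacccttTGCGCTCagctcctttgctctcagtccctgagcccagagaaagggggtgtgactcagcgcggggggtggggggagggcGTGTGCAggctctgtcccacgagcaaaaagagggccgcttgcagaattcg

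Mt1: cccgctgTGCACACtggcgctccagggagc

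The Mt2 stretch held the core 3 times, beginning 223, 128 and 50 bases before the start, the last on the other strand. Searched on both strands of 250 bases, the core was in 34.6% of tested genes with a promoter entry, so that a match is common and is no evidence of a site. It was in 38.6% of the genes that rose and 35.3% of those that fell.

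Markers of cells that could accompany the culture were checked as well. Of 13 fibroblast and feeder markers 9 were tested, of which 3 fell (Col1a1, Col3a1 and Lox) and 1 rose (Col6a1, 1.85 ± 0.23). The calls of Col3a1 and Lox were each lost without some library. Without SB replicate 3 the falls numbered 1. Their summed CPM was 68.5 to 86.1 without and 51.7 to 62.8 with SB. Lum stood at 0, 0.0725 and 0 CPM without and 0, 0.145 and 0.143 CPM with SB, and Postn at 0.543, 0.507 and 0.524 against 0.436, 0.217 and 0.215 CPM. Of 11 blood markers 4 were tested, and Ptprc, Lyz2 and Hba-a1 had no count in any of the 6 libraries. The calls among them, a rise of Itgam and a fall of Cd3e, were each lost without some library. The blood list summed to 33.0 to 49.8 CPM without and 45.4 to 53 CPM with SB. What part the fibroblast markers have in the falls of matrix genes was not tested.

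The Activin response of Vprbp siRNA cells shares no library with the SB response and was set beside it. Untreated libraries of the same number with control and Vprbp siRNA nevertheless deviated together from their group means (correlations across genes 0.123, 0.196 and 0.369). The untreated groups can therefore not be taken as fully separate. In the Vprbp siRNA cells 894 genes were called with Activin A (6.12%), 533 higher (3.65%) and 361 lower (2.47%). Of the 1652 genes lower with SB, 197 were higher with Activin, which is 11.9% of the former and 37.0% of the latter. Of the 1642 genes higher with SB, 126 were lower with Activin (7.67% and 34.9%). Fewer genes moved the same way in both: 42 were higher (2.56% and 7.88%) and 48 lower (2.91% and 13.3%). Without Vprbp siRNA replicate 1, Vprbp siRNA replicate 3 or Vprbp siRNA with Activin replicate 2, the 197 became 112, 104 and 110 and the 126 became 74, 52 and 63, in that order. Calls of single genes with Activin were not followed through these fits.

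Among the genes lower with SB and higher with Activin were Lefty2, at 65.4 ± 26.8 CPM without and 223 ± 52.6 CPM with Activin in Vprbp siRNA cells (mean ± SD, n = 3; 1.78 ± 0.41 against -5.36 ± 0.73 with SB), Smad7 (0.93 ± 0.17), Pmepa1 (0.94 ± 0.09), Bcl11a (1.25 ± 0.15), Fgf15 (1.48 ± 0.21), Nphs1 (0.75 ± 0.17), Grhl2 (0.60 ± 0.11), Epcam (0.52 ± 0.08) and Cdh1 (0.43 ± 0.07). Nodal was raised by 0.36 ± 0.10. Lefty1, at 1.35 ± 0.38, and Tdgf1, at 0.99 ± 0.28, did not pass there (adjusted p = 0.070 and 0.064). Among those higher with SB and lower with Activin were Nfix (-1.59 ± 0.28 against 2.61 ± 0.20 with SB), Stra8 (-2.15 ± 0.15), Meis1 (-1.97 ± 0.16), Sox21 (-1.62 ± 0.19), Pax6 (-1.11 ± 0.14), Lama1 (-1.09 ± 0.14), Id2 (-0.95 ± 0.26) and Ephx2 (-0.72 ± 0.18).

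Other genes moved the same way under the inhibitor and the ligand. Inhbb, at 77.2 ± 14 against 55 ± 7.92 CPM without and with Activin in Vprbp siRNA cells (-0.49 ± 0.12), and Sox1, at 74.1 ± 6.35 against 38.6 ± 7.93 CPM (-0.94 ± 0.12), fell in both comparisons, and Ddx58 (0.80 ± 0.16) and Rxrg, a retinoid receptor gene named after its value was seen (1.26 ± 0.30 against 1.59 ± 0.32 with SB), rose in both. Other genes with large SB responses did not pass with Activin. Hesx1 was at 2.01 ± 0.598 against 2.01 ± 0.549 CPM (-0.01 ± 0.27), Fgfr1 at 287 ± 18 against 305 ± 20.0 CPM (0.09 ± 0.06), Tgfbr1 at 65.2 ± 1.4 against 65.2 ± 5.43 CPM (0.00 ± 0.08) and Tet1 at 922 ± 109 against 832 ± 266 CPM (-0.15 ± 0.19). Id3, Mt1 and Igf2 stood at 0.80 ± 0.53, -0.31 ± 0.38 and 0.15 ± 0.53 with wide spreads between the Activin libraries.

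**Figure D5:**
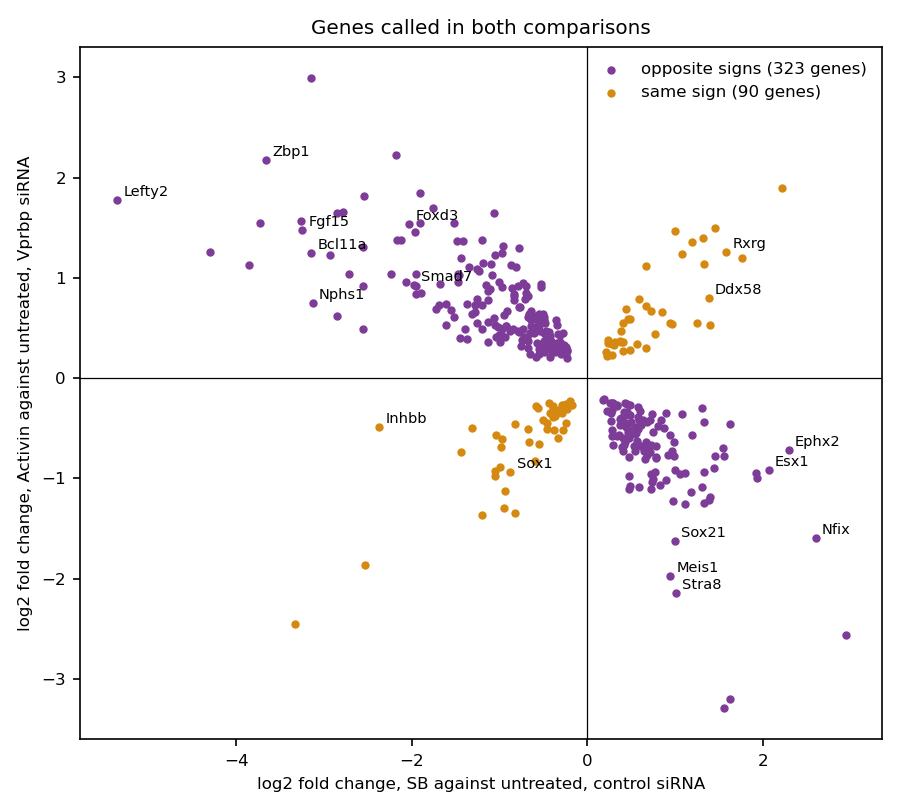
Log2 fold change with SB in control siRNA cells (horizontal axis) against that with Activin in Vprbp siRNA cells (vertical axis) for the genes called in both comparisons, which share no library. Purple points are the 323 genes with opposite signs, orange the 90 with the same sign, and Sox1 and Inhbb lie at the lower left.

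In control siRNA cells the Activin response uses the same untreated libraries as the SB response, so that the values are given only side by side. There 705 genes were called with Activin (4.83%), 431 higher (2.95%) and 274 lower (1.88%). The log2 fold changes were 2.2 ± 0.42 for Lefty2, 1.74 ± 0.22 for Fgf15, 1.26 ± 0.16 for Bcl11a, -0.67 ± 0.12 for Sox1, -0.21 ± 0.12 for Inhbb, -0.11 ± 0.29 for Hesx1 and -0.28 ± 0.62 for Id3. The last 3 did not pass (adjusted p = 0.32, 0.87 and 0.85).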

How the data were processed

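RNA-seq read counts per gene symbol were deposited by the authors as whole numbers, not normalized. Reads were counted with HTSeq 0.6.1p1 against mm10, per the submitters' processing notes, with the aligner, annotation and strandedness not given in the sources used here. The 5 tally rows that name no gene were left out, so that genes held 57.4% to 60.4% of the counts of the 6 libraries. Gene spans come from RefSeq (GRCm38.p6), in which 23249 of 24451 symbols matched directly and 1078 by synonym.

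Counts were fitted for all 15 libraries with 1 mean per group in edgeR 4.0.16 (R 4.3.3) by the robust quasi-likelihood test with TMM scaling, after a filter on low counts (minimum count 10), and called at a Benjamini-Hochberg adjusted p of 0.05. CPM are on TMM-scaled totals, and an SE is the size of the log2 fold change divided by the square root of F. Alternatives were RLE scaling, library totals, other filters, DESeq2 1.42.0, a replicate block, the 6 libraries alone, leaving out each replicate, and a fold threshold of 1.5 in the test. Deviations of same-numbered untreated and SB libraries correlated at -0.035, 0.091 and -0.018. These values show no clear pairing by number, but groups this small cannot exclude it. Those of untreated control and Vprbp siRNA libraries correlated at 0.123, 0.196 and 0.369. Replicate 3 of both groups was among the libraries that lay apart. Libraries of different numbers were not compared between these groups, so that whether the numbers pair them was not tested.

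The comparison and the gene lists were chosen with earlier results of these data known. Named are the 12 largest rises and falls at a mean log2 CPM from 1 upward, the 6 largest each at 100 CPM or more, up to 6 called members of a list in each direction, all called members of the 3 Activin and Nodal lists, the first 2 members of each list, and Vprbp, Lefty1, Lefty2 and Nodal. Bambi, Cyp26a1, Dnmt3b, Dusp6, Eomes, Esrrb, Etv1, Etv5, Gata6, Gdf3, Gli1, Hba-a1, Hes1, Id4, Krt7, Lum, Lyz2, Mest, Mki67, Mt3, Nanog, Nes, Nr2f2, Postn, Pou3f1, Rxrg, Sall2, Smad4, Smad6, Spred1, Spred2, Tgif1, Tpbpa, Vim and Zfp42 were named after their values were seen. Some genes that the rule names are not reported here.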

Additional observations from a re-analysis of the deposited data

How the results depend on the processing

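Of the 3294 genes called, RLE scaling gave 3285, library totals 3334 (1836 higher and 1498 lower, against 1642 and 1652), no filter 3097, a filter of 1 CPM 3287, DESeq2 3337 and the 6 libraries alone 3088. A test against a fold of 1.5 called 446, 196 higher and 250 lower. Leaving out 1 library gave 2399 to 3424 calls. Whether the replicate numbers pair the untreated and SB libraries is not settled by the low correlations of same-numbered libraries. A replicate block gave 3562 calls (1772 higher and 1790 lower), more than the 3294 without it. The deviations of untreated replicate 3 correlated best with those of SB replicate 1. Of 338 named genes tested, all kept their side of the threshold under RLE scaling, and calls were lost for 2 with DESeq2, 3 with the block, 8 with library totals, 12 with no filter, 14 with the 6 libraries alone, 21 to 47 without 1 of them and 186 against a fold of 1.5.

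A fit without the 3 libraries that lay apart, chosen after seeing the data, called 4308 genes (2193 higher and 2115 lower). In it the rises numbered 16 among imprinted, 14 among amino acid and stress, 12 among axon guidance, 10 among epithelium and mesenchyme, 8 among Hedgehog and 5 among BMP ligand genes, and the falls 11 among glycolysis, 7 among Wnt target, 6 among mitosis, 5 among DNA replication, and 4 each among primitive streak, anterior neural and extraembryonic endoderm genes.

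In Vprbp siRNA cells leaving out 1 library moved the 894 genes called with Activin to between 351 (without Vprbp siRNA replicate 3) and 1167 (without Vprbp siRNA with Activin replicate 3), the 533 higher to between 232 and 678, and the 361 lower to between 119 and 489. The genes lower with SB and higher with Activin ran from 104 to 284 and those higher with SB and lower with Activin from 52 to 173. The cause of these shifts was not tested. The replicate block called 1193 genes with Activin, with 277 and 167 in those 2 overlaps.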

Other observations

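The fall of Nphs1 was shared by its neighbours on chromosome 7, chosen after their values were seen. Kirrel2, which encodes a nephrin-like adhesion protein and lies beside Nphs1 (chromosome 7, 30447766 to 30457515, against chromosome 7, 30458207 to 30488623), was at 34.9, 38.9 and 35.8 CPM without and 4.14, 5.14 and 5.87 CPM with SB (-2.85 ± 0.17). The antisense gene Nphs1os fell too (-2.44 ± 0.35), and without a stated strand setting its reads cannot be told from those of Nphs1. Of other genes known from the kidney filter, the zinc finger gene Wt1 fell, at 38, 41.9 and 25.3 against 5.16, 5.72 and 4.37 CPM (-2.79 ± 0.28), while Kirrel, which encodes another nephrin-like protein, rose from 54.7, 55.5 and 63.4 to 95.5, 99.4 and 91.7 CPM (0.72 ± 0.08) and Podxl from 75.6, 76.1 and 57.6 to 179, 194 and 164 CPM (1.36 ± 0.39), a call that any left-out library removed.

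Other groups of related genes, likewise picked after the fact, moved with SB. Fras1 (1.39 ± 0.21), Frem1 (2.11 ± 0.49) and Frem2 (1.6 ± 0.09), which encode proteins of a basement membrane complex, rose. The fatty acid transport gene Cpt1a was at 74.6, 80.8 and 80.1 against 16.9, 22.8 and 22.1 CPM (-1.93 ± 0.09). Ctnnb1, which encodes beta-catenin, rose by 0.51 ± 0.06, and Jup, which encodes its relative plakoglobin, was at -0.49 ± 0.07. Tgfbi, a gene named for its induction by TGF-beta, rose from 24.2, 26.3 and 32.8 to 109.5, 99.9 and 109.8 CPM (1.94 ± 0.14). Rn45s, a ribosomal RNA precursor, was at 8764, 4292 and 4294 against 3063, 3212 and 3111 CPM (-0.89 ± 0.23). Untreated replicate 1 stood far above the other untreated libraries, and the call was lost without SB replicate 1, 2 or 3.

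The chromosomes with the highest and the lowest median log2 fold change, X and 8, were picked after the values were seen. Genes of the X chromosome (526 tested) had a median of 0.072, with 19.2% higher and 8.37% lower. Genes of chromosome 8 (776 tested) had one of -0.059, with 9.79% higher and 17.1% lower. Over all genes 11.2% were higher and 11.3% lower. Other chromosomes ranged from 7.59% to 14.1% higher and from 8.28% to 13.1% lower. Medians per library were taken on log2 CPM, centred by gene on the untreated mean and by library on its median. For the X chromosome they were 0.023, -0.012 and -0.012 without and 0.076, 0.032 and 0.107 with SB. SB replicate 2 thus lay near untreated replicate 1. For chromosome 8 they were -0.0095, -0.00033 and 0.0057 against -0.043, -0.071 and -0.066.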
